A study of Mus musculus with 4 samples.

Results

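The genes described here are the nuclear-encoded subunits of oxidative phosphorylation (OXPHOS), measured by single-cell RNA sequencing in mouse brown adipose tissue (BAT), in its stromal vascular fraction (SVF). They were chosen by gene symbol alone, as every gene named Nduf followed by a subunit letter and number, Sdha to Sdhd, Uqcr, Cox4 to Cox8, or Atp5. The rule found 85 of the 32285 genes counted, of which 38 belonged by symbol to complex I, 4 to complex II, 8 to complex III, 18 to complex IV and 17 to complex V. The symbol family is not a perfect guide to the complex: Ndufa4 is now regarded as a subunit of complex IV, and Cox7a2l is best known as a factor that joins complexes III and IV into supercomplexes. The 13 protein-coding genes of the mitochondrial genome, which carry the prefix mt-, were set against them in the same cells.

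There were 4 libraries of male mice, 1 per group: wild-type (WT) C57BL6/J mice of 10 weeks, db/db mice of 8 weeks, db/db mice of 16 weeks (8w and 16w in the plots), and mice on a high-fat diet (HFD). The db/db mice, of the strain B6.BKS(D)-Leprdb/J, carry a mutation of the leptin receptor gene in every cell and become obese and diabetic, whereas the HFD mice carry no mutation. The HFD mice were labelled as 10 weeks old although the diet began at 10 weeks and lasted 10 weeks, so their age is not settled. Tissue was taken after a fast of 16 h. Each library was made from the pooled SVF of 3 mice after adipocytes had been floated off, so a difference between libraries has no replicate behind it and cannot be told apart from a difference between preparations.

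The OXPHOS system is the set of 5 enzyme complexes in the inner mitochondrial membrane that pass electrons from nutrients to oxygen and use the resulting proton gradient to make ATP. Complexes I, III, IV and V mix subunits encoded in the nucleus with subunits encoded in mitochondrial DNA, and complex II is wholly nuclear. In BAT the system is known for heat production in brown adipocytes, where the uncoupling protein Ucp1 lets protons return without making ATP. The cells measured here were the macrophages, stromal cells and vessel cells around those adipocytes.

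Nuclear OXPHOS genes are known as targets of the transcription factors NRF1, YY1 and ERRα, so their RefSeq promoters, from 250 bases before to 50 after the start, were searched for 5 motifs on both strands. Of the 85 genes, 67 matched the table by symbol, with 72 promoters. The NRF1 motif GCGCANGCG was in 29.2% of these promoters and in 8.58% of the 21263 promoters of protein-coding genes. For the YY1 motif AANATGGCG the shares were 13.9% and 3.12%, for the ETS motif CCGGAAGT 6.94% and 5.15%, for the ERRα motif TCAAGGTCA 2.78% and 0.334%, and for the TATA box TATAAA 12.5% and 12.6%. The 5 promoters below are shown because, among the subunit genes with an NRF1, YY1, ETS or ERRα motif in the 150 bases before the start, these had the highest ratios of 16-week db/db to WT in macrophages. Each run is the 150 bases before the start, 5′ to 3′ on the strand of the gene, from the mouse build GRCm38.p6, with motif matches in either direction in capitals, all of them to the NRF1 motif. The motif is almost its own reverse complement, so a run of 10 capitals holds 2 overlapping matches. Ndufa8 lies at chr2:36049339-36049488 on the minus strand, Ndufa11 at chr17:56717612-56717761 on the plus strand, Ndufb4 at chr16:37654369-37654518 on the minus strand, Ndufs5 at chr4:123718187-123718336 on the minus strand and Atp5k at chr5:108434400-108434549 on the minus strand.
Ndufa8: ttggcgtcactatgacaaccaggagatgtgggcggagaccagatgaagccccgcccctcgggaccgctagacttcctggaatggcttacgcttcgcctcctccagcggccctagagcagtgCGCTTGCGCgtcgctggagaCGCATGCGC
Ndufa11: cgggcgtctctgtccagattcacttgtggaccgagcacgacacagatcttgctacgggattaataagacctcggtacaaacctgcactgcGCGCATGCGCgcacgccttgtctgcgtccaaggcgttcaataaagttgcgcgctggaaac
Ndufb4: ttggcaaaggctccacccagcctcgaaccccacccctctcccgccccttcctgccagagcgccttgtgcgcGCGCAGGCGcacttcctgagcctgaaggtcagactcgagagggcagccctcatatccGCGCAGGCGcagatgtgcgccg
Ndufs5: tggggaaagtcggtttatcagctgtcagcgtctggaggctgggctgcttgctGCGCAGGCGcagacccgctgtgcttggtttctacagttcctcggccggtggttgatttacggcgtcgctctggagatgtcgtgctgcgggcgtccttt
Atp5k: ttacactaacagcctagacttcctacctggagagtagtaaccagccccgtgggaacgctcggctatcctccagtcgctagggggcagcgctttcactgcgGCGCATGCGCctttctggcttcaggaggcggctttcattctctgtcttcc
A match describes the letters and is not evidence that a factor was bound.

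Barcodes were kept if they held 250 to 6000 genes, 500 to 30000 unique molecular identifiers (UMIs), limits excluded, and less than 15% mt- UMIs, which left 5944 cells in WT, 11648 in 8-week db/db, 5833 in 16-week db/db and 5462 in HFD. Levels are given as UMI counts per 1000000 UMIs of nuclear genes (CPM), and the 95% intervals cover counting error only. The libraries held 28504069 to 61828295 UMIs in all. They differed in their mitochondrial RNA before any comparison was made. Over the 15% limit lay 28.0% of barcodes in WT, 35.6% in 8-week db/db, 1.04% in 16-week db/db and 68.5% in HFD, and the median mt- share of the kept cells was 4.29%, 5.94%, 0.799% and 10.5%. Between 16 and 97 barcodes were shared by any 2 libraries, at most 0.629% of a library. Macrophages, stromal cells, endothelial cells and T cells were gated on raw marker UMIs, with at least 3 UMIs from at least 2 markers and at least 75% of a barcode's lineage marker UMIs. The markers of the gate were all detected in it. Macrophage markers summed to between 5964 and 15846 CPM in the macrophage gate and to between 283 and 871 in the stromal gate. The gates were chosen by these markers, so such sums describe the gates and do not test what the cells are. The macrophage gate held 1171, 2723, 2446 and 1530 cells and the stromal gate 4357, 6994, 1205 and 1681 cells in WT, 8-week db/db, 16-week db/db and HFD. The endothelial gate held 10 cells in WT, so that library was left out of endothelial tests.

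The summed level of the nuclear OXPHOS genes was higher in each library from obese mice than in WT, most of all in 16-week db/db. Over all kept cells it was 10182 CPM in WT, 14652 in 8-week db/db, 31650.1 in 16-week db/db and 16126 in HFD. In the macrophage gate it was 12164, 17222, 35628 and 17533 in the same order, and in the stromal gate 9628, 12797, 22203 and 12858. The higher level was thus present within each gate. On the log2 scale the macrophage sum was higher than WT by 0.50 in 8-week db/db (interval 0.49 to 0.51), 1.55 in 16-week db/db (1.54 to 1.56) and 0.53 in HFD (0.52 to 0.54). The make-up of the macrophage gate differed between these libraries: in WT it held 1112 perivascular macrophages (PVMs) and 14 lipid-associated macrophages (LAMs), and in HFD 164 PVMs and 1011 LAMs. PVMs alone were higher than WT by 0.31, 1.35 and 0.12 in the same order, an alternative chosen after the data were seen. The stromal sum was higher by 0.41 (0.40 to 0.42), 1.21 (1.20 to 1.22) and 0.42 (0.41 to 0.43). Macrophage transcripts were also higher in the stromal gate of these libraries, where the 10 macrophage markers summed to 283 CPM in WT, 714 in 8-week db/db, 449 in 16-week db/db and 871 in HFD. Of the LAM genes, Trem2 had 1.65 CPM in stromal cells of WT, 74.0 in 16-week db/db and 90.1 in HFD, and Spp1 had 1.35 in WT and 89.8 in 16-week db/db. Their part in the stromal result was not tested. T cells followed the same order, with 13435, 14632, 23160.4 and 16629 CPM, although the WT and HFD gates held only 13 and 15 cells.

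The mitochondrially encoded genes of the same cells did not follow the nuclear ones. Their sum over all kept cells was 40534 CPM in WT, 48589 in 8-week db/db, 9470.1 in 16-week db/db and 105188 in HFD. In macrophages it was 61713, 47254, 8437 and 98343, and in stromal cells 35107, 47251, 7737 and 102158. The library with the highest nuclear OXPHOS level thus had the lowest mt- level in both gates. For each nuclear OXPHOS UMI there were 3.98 mt- UMIs in WT, 3.32 in 8-week db/db, 0.299 in 16-week db/db and 6.52 in HFD. The 15% limit removes barcodes by their mt- share, and without it the ratios were 6.24, 5.005, 0.313 and 11.4, in the same order.

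**Figure D1:**
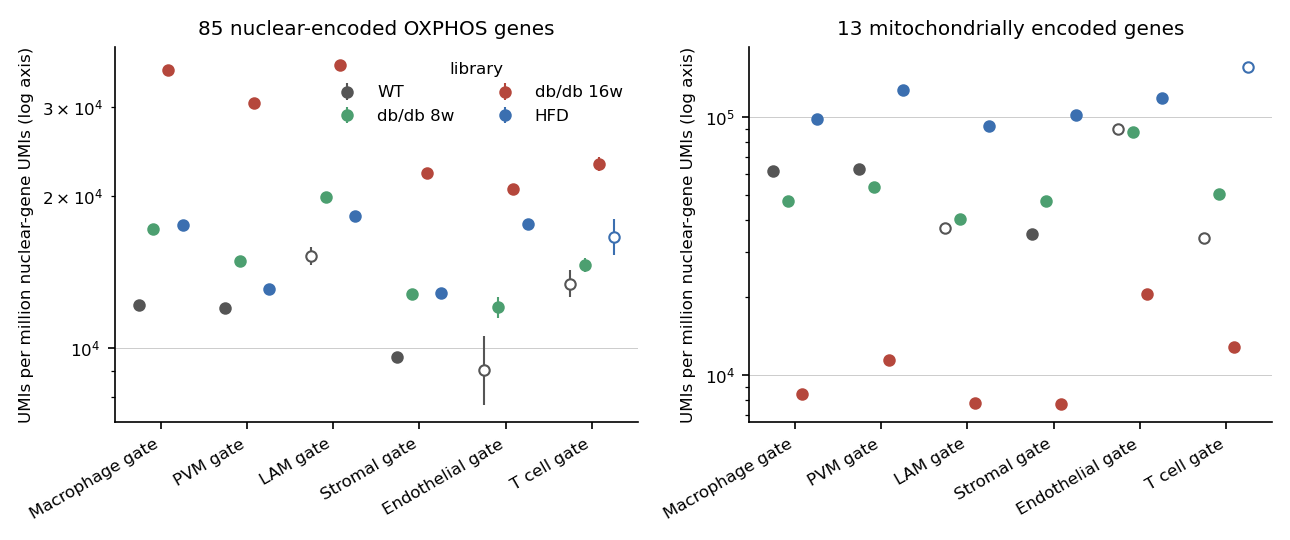
Summed level of the 85 nuclear-encoded OXPHOS genes (left) and the 13 mt- genes (right) in each gate, in CPM on log axes, with 1 point per library, 95% counting intervals and open points for gates of under 50 cells. In the macrophage gate 16-week db/db was highest for the nuclear genes (35628) and lowest for the mt- genes (8437).

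The mixed complexes were also taken one by one. In macrophages, complex I had 3.29 mt- UMIs per nuclear UMI in WT, 2.08 in 8-week db/db, 0.148 in 16-week db/db and 4.94 in HFD. For complex III the ratios were 3.32, 2.35, 0.230 and 5.03, for complex IV 9.97, 4.93, 0.489 and 9.71, and for complex V 3.25, 1.61, 0.129 and 3.13. Each complex had its lowest ratio in 16-week db/db. Of the mt- genes, mt-Co1, the catalytic core of complex IV, had 14960.4 CPM in WT macrophages, 8583 in 8-week db/db, 1772 in 16-week db/db and 15228 in HFD. The smallest differences between 16-week db/db and WT macrophages were those of mt-Atp8 (183 CPM in WT and 125 in 16-week db/db, a log2 ratio of -0.55) and mt-Nd4l (459 and 250.3, -0.87), and the other 11 mt- genes had log2 ratios from -2.33 to -3.71. Both share bases with a longer neighbour, mt-Atp6 and mt-Nd4, and reads from the shared bases cannot be assigned to 1 gene. The overlap of mt-Nd4l, which ends at base 10173, with mt-Nd4, which starts at 10167, is short. Both neighbours share the same bases and are among the other 11 genes. The part of the overlaps in these ratios was not tested.

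Comparison of single genes between libraries used all genes with a mean of at least 20 CPM in the 2 libraries and counted those at least 1.5-fold apart, with no test. The 3 comparisons share the WT library. In macrophages 77 of the 85 OXPHOS genes were compared, and the other 8 (Ndufa4l2, Cox4i2, Cox6a2, Cox6b2, Cox7a1, Cox7b2, Cox8b and Cox8c) were below that level. In 8-week db/db, 30 of 77 were at least 1.5-fold higher than in WT, where 15.4% of all 5409 genes compared were, and 0 were lower, where 12.4% of all genes were. In 16-week db/db, 72 of 77 were higher (30.2% of 5400 genes) and 0 lower (35.8%). In HFD, 42 of 77 were higher (30.1% of 5689 genes) and 0 lower (16.4%). In PVMs alone the counts of OXPHOS genes were 8 higher and 0 lower in 8-week db/db, 70 higher and 0 lower in 16-week db/db, and in HFD 17 higher and 8 lower. The share of all genes past 1.5-fold was not counted in PVMs, so these PVM counts cannot be set against that of all genes. The median log2 ratio of the OXPHOS genes was 0.50 in 8-week db/db, 1.56 in 16-week db/db and 0.64 in HFD, and that of all genes compared was 0.04, -0.11 and 0.24.

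In stromal cells the counts were smaller. In 8-week db/db, 17 of 78 OXPHOS genes were at least 1.5-fold higher than in WT (9.09% of all 6051 genes) and 0 lower (7.17%). In 16-week db/db, 66 of 78 were higher (22.9% of 5960 genes) and 1, Cox7a2l, was lower (24.2%). In HFD, 30 of 79 were higher (22.7% of 6266 genes) and 0 lower (12.1%). The additional gene in HFD was Cox8b, with 1.15 CPM in WT and 58.0 in HFD. It passed the level filter only through HFD, and without it 29 of 78 were higher. Ndufa4l2 (6.71 CPM in WT) and Ndufs8 (17.6 in WT) also passed that filter only through the libraries of obese mice. Both remain in the counts of higher genes in all of those libraries, and their direction does not count as a result. The median log2 ratio of the OXPHOS genes compared was 0.45, 1.29 and 0.48 in the same order, against 0.04, -0.01 and 0.18 for all genes.

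Complex I oxidizes NADH, and 36 of its 37 compared genes were at least 1.5-fold higher in 16-week db/db macrophages than in WT, with a median log2 ratio of 1.57. Ndufa4 led them, with 170 CPM in WT, 343 in 8-week db/db, 876 in 16-week db/db and 411 in HFD macrophages. Ndufb8, an accessory subunit, had 123, 224, 597 and 269, and Ndufc1 97.5, 161, 466 and 152. All 3 were higher in each library of obese mice than in WT, and highest in 16-week db/db. Of the core subunits, Ndufs1, which holds iron-sulfur clusters, had 20.8, 30.1, 33.4 and 37.1 CPM (log2 ratio 0.66 in 16-week db/db). Ndufa6 had the lowest log2 ratio of the complex in 16-week db/db macrophages, 0.57, with 198, 233, 295 and 182 CPM.

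Complex II, succinate dehydrogenase, is also an enzyme of the tricarboxylic acid cycle, and its 4 genes differed among themselves. Sdhb, the iron-sulfur subunit, had 62.1 CPM in WT macrophages, 89.9 in 8-week db/db, 236 in 16-week db/db and 161 in HFD. Sdha, the flavoprotein that oxidizes succinate, had 70.4, 87.3, 68.1 and 100.1. Sdhc and Sdhd, the membrane anchors, had 69.9, 75.5, 86.2 and 101 CPM, and 58.1, 49.2, 101 and 55.4. Sdhb was therefore 1.91 higher in 16-week db/db than in WT on the log2 scale while Sdha differed by -0.05. In stromal cells the same 2 genes had log2 ratios of 1.52 and -0.09, with Sdhb at 34.6, 52.0, 101 and 81.5 CPM and Sdha at 66.6, 65.3, 62.7 and 89.0.

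Complex III passes electrons to cytochrome c, and 7 of its 8 genes were at least 1.5-fold higher in 16-week db/db macrophages than in WT. Uqcrb, a ubiquinone-binding subunit, had 180, 297, 705 and 286 CPM in WT, 8-week db/db, 16-week db/db and HFD, and Uqcrq had 272, 394, 849 and 280.2. Uqcrh, the hinge protein, was the exception, with 456, 451, 569 and 453 CPM and a log2 ratio of 0.32 in 16-week db/db. Uqcrh had the highest level of the complex in WT macrophages but not in 16-week db/db macrophages.

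Complex IV, cytochrome c oxidase, reduces oxygen, and 10 of its 11 compared genes were at least 1.5-fold higher in 16-week db/db macrophages than in WT. Cox5b had 153, 281, 746 and 301 CPM and a log2 ratio of 2.28, and Cox7a2 had 161, 273, 695 and 301 and a ratio of 2.10. Cox7a2l stood apart, with 266, 315, 236 and 353 CPM in macrophages (log2 ratio -0.17 in 16-week db/db) and 295, 226, 183 and 238 in stromal cells (-0.69). Its paralog Cox7a2 in stromal cells had 140, 202, 395 and 187. Cox7a2l (chr17:83501918-83517330, minus strand, GRCm38) was thus the lowest of the compared OXPHOS genes in 16-week db/db by its ratio to WT in both gates. Cox4i1, a regulatory subunit, had the highest level of the complex in WT macrophages (640 CPM), and Cox7c the highest in 16-week db/db macrophages (1527). UMIs count transcript 3′ ends in this assay, so levels of different genes were not divided by length.

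Complex V is the ATP synthase, and all 17 of its genes were at least 1.5-fold higher in 16-week db/db macrophages than in WT. Atp5g1 (chr11:96068852-96075670, minus strand, GRCm38) had the highest ratio of all compared OXPHOS genes, with 95.5 CPM in WT macrophages, 228 in 8-week db/db, 540.04 in 16-week db/db and 302 in HFD, a log2 ratio of 2.49 in 16-week db/db. Its level in HFD macrophages was 1.65 higher than in WT on the log2 scale, and in 8-week db/db macrophages 1.25 higher. Atp5g1, Atp5g2 and Atp5g3 encode the same mature subunit c, the ring that turns as protons pass. Atp5g1 gave 17.4% of the UMIs of the 3 genes in WT macrophages, 27.0% in 8-week db/db, 27.3% in 16-week db/db and 30.2% in HFD, and 19.5%, 29.7%, 24.3% and 28.6% in stromal cells. Atp5g2, the most abundant of them, gave 58.4%, 52.6%, 53.0% and 47.6% in macrophages. The make-up of the subunit c transcripts thus differed from WT in each library of obese mice, beyond the difference in their sum. The 3 coding sequences have processed copies in the genome, so reads could be split among near-identical sites.

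In HFD the genes with the lowest ratios carried the names of small accessory subunits. Of these, Ndufb1-ps is annotated as a long non-coding RNA and not as protein-coding. In HFD macrophages the lowest log2 ratios to WT were those of Ndufb1-ps (222 CPM in WT and 179 in HFD, -0.31), Ndufa3 (117 and 98.4, -0.24) and Ndufa2 (305 and 262, -0.22), and Cox7c stood at 548 and 477. In 16-week db/db macrophages these 4 genes had 785, 295, 576 and 1527 CPM. The highest ratios in HFD macrophages were those of Atp5g1, of Atp5b (146 and 408, 1.47), the catalytic β subunit of the synthase, and of Sdhb (62.1 and 161, 1.36). In HFD stromal cells the lowest were Ndufa6 (204 and 144, -0.50), Ndufa3 (99.1 and 76.9, -0.36) and Ndufb1-ps (146 and 114, -0.35). Ndufb11, Ndufa1 and Cox7b are the 3 compared genes on the X chromosome, and their median log2 ratio in 16-week db/db was 1.57 in macrophages and 1.01 in stromal cells, against 1.56 and 1.29 for the autosomal genes.

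**Figure D2:**
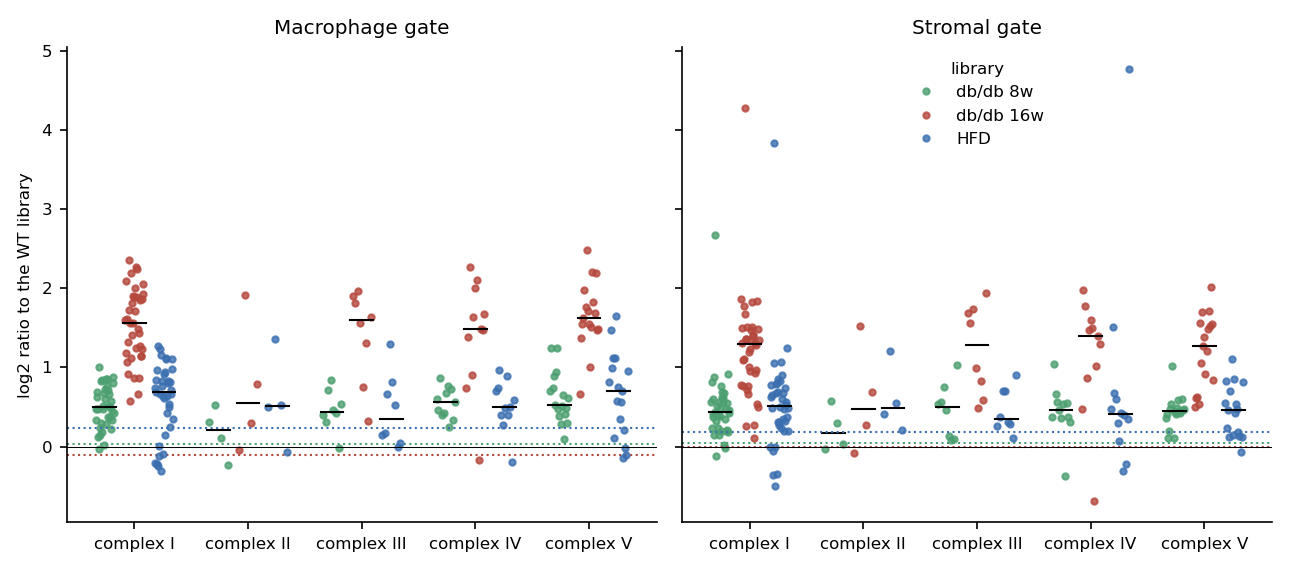
Log2 ratio to WT of each compared nuclear OXPHOS gene, by complex and library, in the macrophage gate (left) and stromal gate (right), with the median of each complex as a black line and the median of all genes compared as a dotted line. In 16-week db/db macrophages the medians were 1.57, 0.55, 1.60, 1.49 and 1.63 for complexes I to V, against -0.11 for all genes.

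Transcript length moved with these ratios. OXPHOS transcripts are short, with a median length of 655 bases against 1909 for all genes compared between 16-week db/db and WT macrophages. Across all 5344 genes with a length the ratio fell with length (Spearman's rho across genes -0.38), and across the 76 OXPHOS genes rho was -0.29. In HFD macrophages the 2 values were -0.08 and 0.49, and across OXPHOS genes in 8-week db/db macrophages rho was 0.28. The genes outside OXPHOS under 1 kb had a median log2 ratio of 0.62 in 16-week db/db macrophages, with 51.0% at least 1.5-fold higher, whereas the 57 OXPHOS genes under 1 kb had a median of 1.63. In stromal cells these were 0.35 and 39.8%, against 1.37 for 58 OXPHOS genes. Genes are not independent replicates, and the part of length in the result was not tested.

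Other transcripts moved with the OXPHOS sum as well. In macrophages the cytosolic ribosomal protein genes summed to 115006 CPM in WT, 154513 in 8-week db/db, 224219 in 16-week db/db and 127876 in HFD. Nuclear-retained RNAs such as Malat1 and Neat1 summed to 26172, 18967, 8026 and 24163. Immediate-early and heat-shock genes, which respond to cell handling among other stimuli, summed to 25337, 11382, 3563 and 5318. The share of OXPHOS UMIs in single macrophages rose with the ribosomal share (Spearman's rho over cells 0.29 to 0.66 by library) and fell with the nuclear-retained share (-0.48 to -0.65), and these shares have the same denominator. With ribosomal and nuclear-retained genes taken out of the denominator, the 16-week db/db macrophage sum was higher than WT by 1.71 on the log2 scale. The part of RNA quality and handling in the library differences was not tested.

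Other mitochondrial gene lists differed in size from the OXPHOS genes. In 16-week db/db macrophages, 58 of 64 compared mitochondrial ribosomal protein genes (1 was lower), 18 of 19 genes of mitochondrial import and 12 of 16 assembly factors were at least 1.5-fold higher than in WT, where 30.2% of all genes were. Their median log2 ratios were 1.43, 1.49 and 0.90. Of the 14 genes of the tricarboxylic acid cycle, 6 were higher and the median was 0.49. Of the 13 biogenesis regulators, 2 passed the level filter in 16-week db/db macrophages and both were lower, where 35.8% of all genes were: Esrra, which encodes ERRα, had 29.998 CPM in WT and 14.3 in 16-week db/db (-1.02), and Nrf1 had 27.5 and 17.7 (-0.60). Both passed that filter only through their WT values, so their direction does not count as a result about the regulators. In 8-week db/db macrophages 1 of 3 compared, Nrf1, was lower and again passed only through WT, and in HFD macrophages 0 of 3 were. In stromal cells of 16-week db/db, 4 were compared, of which Tfam was higher (14.6 CPM in WT and 25.7, 0.78) and Polg lower (31.1 and 18.2, -0.74). Tfam passed the filter only through 16-week db/db and Polg only through WT. For the mitochondrial ribosomal protein, import, assembly and tricarboxylic acid cycle genes in the same stromal cells the counts higher were 44 of 60, 11 of 17, 7 of 16 and 6 of 14, and for cytosolic ribosomal proteins 31 of 81 higher and 6 lower. Of all genes compared in these stromal cells, 22.9% were higher and 24.2% lower.

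Differences between cell types could be tested, since each library holds several gates. Summed UMIs per library and gate were compared with edgeR's quasi-likelihood test with the library as a block, and p-values were adjusted by Benjamini-Hochberg over all genes tested. Such p-values rest on the spread between 4 or 3 pooled preparations of different genotype and age, and fold changes were scaled with the trimmed mean of M values (TMM) method.

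Macrophages had higher levels of most nuclear OXPHOS genes than stromal cells of the same library. Of 83 tested, 56 were higher (26.7% of all 13224 genes were) and 3 were lower (26.6%), with a median log2 fold of 0.68 against 0.04 for all genes. Scaling moved this count: with no scaling beyond the UMI total, 35 were higher and 3 lower, the median of all genes was -0.22 and 36.7% of all calls were higher, against 50.1% with TMM. The count of 56 was 17 without 8-week db/db, 30 without 16-week db/db, 34 without HFD and 66 without WT. Of all genes, 2039 of 13057, 2701 of 13476, 2769 of 13398 and 3718 of 13392 were higher in these fits. The calls of all genes thus changed with the libraries too. The count of 3 lower was 1 without 8-week db/db, 16-week db/db or HFD, where 2435, 3597 and 3113 of all genes were lower.

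Cox5a, a structural subunit of complex IV, had 263 CPM in macrophages and 62.7 in stromal cells of WT, 362 and 131 in 8-week db/db, 686 and 249 in 16-week db/db, and 438 and 180.0 in HFD. Macrophages were higher in all 4 libraries, and all macrophage values were above all stromal values (log2 fold 1.82, SE 0.19, adjusted p = 0.0008 by edgeR's quasi-likelihood test with Benjamini-Hochberg adjustment). Ndufs8, an iron-sulfur subunit of complex I, had 47.0 and 17.6 CPM in WT and 173 and 65.3 in 16-week db/db (log2 fold 1.40, SE 0.17, adjusted p = 0.0012). All 4 Sdh genes were higher in macrophages, from Sdha (0.45, SE 0.15, adjusted p = 0.044) to Sdhb (1.21, SE 0.16, adjusted p = 0.0017). By family, 20 of 38 Nduf, 4 of 4 Sdh, 6 of 8 Uqcr, 11 of 16 Cox and 15 of 17 Atp5 genes were higher. Of the 13 mt- genes 0 were called, at adjusted p from 0.072 to 0.96, and at unadjusted p 1 of them, mt-Co1, was under 0.05. Among the other lists, 40 of 78 mitochondrial ribosomal protein genes, 13 of 23 import genes, 11 of 43 assembly factors and 6 of 14 genes of the tricarboxylic acid cycle were higher, where 26.7% of all genes were. The share of assembly factors was near that of all genes, and 1 of them was lower. Of 13 biogenesis regulators, 2 were higher and 2 lower in macrophages, with the largest fold that of the coactivator Ppargc1a (log2 fold -4.04).

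The 3 genes lower in macrophages were tissue-restricted isoforms. Ndufa4l2 (chr10:127514967-127517154, plus strand, GRCm38), a paralog of Ndufa4 known as a target of hypoxia-inducible factor, had 0.134, 0.519, 0.112 and 3.69 CPM in macrophages of WT, 8-week db/db, 16-week db/db and HFD and 6.71, 48.2, 149.5 and 109.5 in stromal cells. Stromal cells were above macrophages in all 4 libraries (log2 fold -6.30, SE 0.83, adjusted p = 0.0016). Within stromal cells it was higher in each library of obese mice than in WT, with log2 ratios of 2.67, 4.29 and 3.84, and it passed the level filter only through those libraries. Ndufa4l2 is also known in pericytes, and mural markers were higher in the stromal gate too, with 11.0 CPM in WT and 26.3, 123 and 185 in the libraries of obese mice. In stromal barcodes with no mural UMI, Ndufa4l2 had 4.24, 40.7, 127 and 105 CPM, and in those with 1 or more it had 36.1, 96.1, 184 and 115. A barcode with no mural UMI may still hold mural RNA, and expression by stromal cells and by mural cells cannot be told apart. Cox4i2, the oxygen-responsive isoform of Cox4i1, reached 12.3 CPM in stromal cells of 16-week db/db and 1.96 in macrophages (log2 fold over 4 libraries -1.95, SE 0.61, adjusted p = 0.037), and was lower in macrophages in 3 of 4 libraries. In stromal barcodes with no mural UMI it had 1.11, 6.75 and 6.25 CPM in 8-week db/db, 16-week db/db and HFD. In those with 1 or more it had 5.21, 21.0 and 10.1. Its 2 UMIs in WT stromal cells lay in barcodes with none. For Cox4i2 too the 2 sources cannot be told apart. Cox6b2, known from testis, had 6.83, 7.14, 8.44 and 4.75 CPM in stromal cells and 5.36, 2.60, 2.75 and 2.04 in macrophages (-0.90, SE 0.27, adjusted p = 0.033).

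Among macrophages, lipid-associated macrophages (LAMs), which take up and degrade lipid, were compared with perivascular macrophages (PVMs). LAMs were gated on Trem2, Cd9, Gpnmb, Spp1 and Itgax and PVMs on Lyve1, Folr2, Cd163, Timd4, Cbr2 and F13a1, with at least 2 UMIs of 1 list and more than 2 times those of the other. The WT library held too few LAMs and was left out, and LAMs and PVMs numbered 634 and 1681 in 8-week db/db, 1624 and 435 in 16-week db/db, and 1011 and 164 in HFD. The summed OXPHOS level was 19982 CPM in LAMs and 14920.0 in PVMs of 8-week db/db, 36472 and 30639 in 16-week db/db, and 18288 and 13103 in HFD. The PVMs of WT had 12043.

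LAMs had higher levels of 68 of the 82 OXPHOS genes tested, against 19.0% of all 11248 genes, by edgeR's quasi-likelihood test. None were lower, against 12.7% of all genes, and at unadjusted p under 0.05 the count was 71 higher and 1 lower. The median log2 fold was 0.67 and that of all genes 0.05. With no scaling beyond the UMI total 34 were higher and 1 lower, the median of all genes was -0.21, and the split of all calls turned from 60.02% higher to 32.4% higher. Without 16-week db/db the count was 10, where the median log2 fold was 0.63 and 592 of all 11548 genes were higher. Without 8-week db/db it was 48 (1160 of 11106 genes) and without HFD 60 (2108 of 11320). DESeq2 called 63 higher (1532 of 11536 genes) and 0 lower.

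Atp5g1 had 317 CPM in LAMs and 155 in PVMs of 8-week db/db, 577 and 302 in 16-week db/db, and 326 and 136 in HFD. The LAM value was above the PVM value in 3 of 3 libraries and above all 3 PVM values (log2 fold 1.33, SE 0.15, adjusted p = 0.0003 by edgeR's quasi-likelihood test). Ndufb6 had 114 and 77.2, 216 and 144, and 108 and 47.8 CPM (0.99, SE 0.17, adjusted p = 0.0020). Ndufa9 followed, with 55.9 and 32.9, 56.4 and 34.3, and 58.2 and 44.7 (0.91, SE 0.17, adjusted p = 0.0035). Cox6a2, an isoform known from striated muscle, had the largest fold at a very low level, 4.01 and 1.71, 3.05 and 1.94, and 7.46 and 1.54 CPM (1.45, SE 0.43, adjusted p = 0.027). The genes called covered all complexes, with 31 of 37 Nduf, 3 of 4 Sdh, 7 of 8 Uqcr, 11 of 16 Cox and 16 of 17 Atp5 genes.

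The 14 genes that did not pass included the same supercomplex factor and flavoprotein that stood low between libraries. Cox7a2l had 329 and 298 CPM in LAMs and PVMs of 8-week db/db, 230.1 and 285 in 16-week db/db, and 347 and 385 in HFD (log2 fold 0.16, SE 0.15, adjusted p = 0.44 by edgeR's quasi-likelihood test). Sdha had 88.7 and 88.6, 65.7 and 86.8, and 102 and 81.7 (0.21, SE 0.15, adjusted p = 0.30). Uqcrh (0.19) and Ndufs1 (0.12) had folds of like size, with adjusted p-values of 0.36 and 0.60 by the same test. Before scaling, by CPM, Ndufs1 was lower in LAMs in 3 of 3 libraries and Uqcrh in 2 of 3, so the sign of these folds rests on the scaling. The lowest fold was that of Cox4i2 (-1.67, SE 0.60, adjusted p = 0.057), which had at most 5.83 CPM in PVMs. A p-value above 0.05 does not show that 2 gates are alike.

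The mt- genes again went apart from the nuclear ones. Each of the 13 had a lower value in LAMs than in PVMs in 3 of 3 libraries by CPM, with log2 folds after scaling from -0.07 to -0.46, and 0 were called by edgeR's quasi-likelihood test (2 at unadjusted p under 0.05). Their sum was 40180 CPM in LAMs and 53696 in PVMs of 8-week db/db, 7780.0 and 11467 in 16-week db/db, and 92338 and 127174 in HFD. Beside the OXPHOS genes, 64 of 78 mitochondrial ribosomal protein genes, 20 of 23 import genes, 16 of 43 assembly factors and 5 of 14 genes of the tricarboxylic acid cycle were higher in LAMs, with median log2 folds of 0.76, 0.81, 0.55 and 0.39. Of the other respiratory chain genes, 7 of 8 were higher, with cytochrome c (Cycs) at 1.14. Of the 12 biogenesis regulators 0 were higher and 2 lower. Of 82 cytosolic ribosomal protein genes 44 were higher, and 7 of 9 immediate-early and heat-shock genes were lower. Of all genes tested, 19.0% were higher in LAMs and 12.7% lower. LAMs were also deeper than PVMs, with median UMIs per cell of 10232 and 4517 in 8-week db/db, 7783 and 3038 in 16-week db/db, and 7284 and 3999 in HFD, and the part of depth and handling was not tested.

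**Figure D3:**
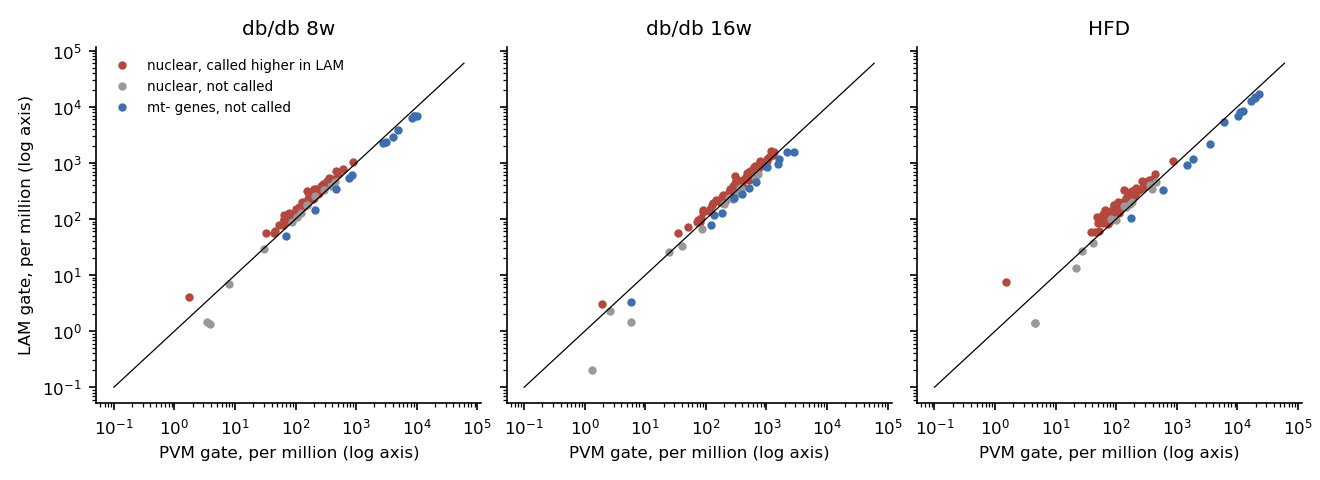
Level of each gene in LAMs (vertical axis) against PVMs (horizontal axis) of the same library, in CPM on log axes, with 1 panel per library and a line of equal level. Nuclear OXPHOS genes called higher in LAMs (68) lie mostly above the line and the 13 mt- genes below it.

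Few OXPHOS genes were called between cycling and non-cycling macrophages. Macrophages holding 2 or more UMIs from a list of 10 cell cycle genes were set against those with 0, which gave 72 and 974 cells in WT, 422 and 1863 in 8-week db/db, 739 and 1408 in 16-week db/db, and 251 and 998 in HFD. Of 81 OXPHOS genes tested, 6 were higher in cycling cells by edgeR's quasi-likelihood test (5.54% of all 10962 genes) and 0 lower (4.98%), with a median log2 fold of 0.17 against -0.03. A share of 6 in 81 is near that of all genes. The count was 0 without 8-week db/db, 16-week db/db or HFD and 16 without WT. Of all genes, 383 of 11017, 357 of 10954, 366 of 11049 and 952 of 11103 were higher in these fits. At unadjusted p under 0.05, 21 were higher and 1 was lower.

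Of the 6 genes called, 5 belonged by symbol to complex V. Since their count was near the share of all genes and was 0 without 8-week db/db, 16-week db/db or HFD, this is not a result about complex V. Atp5o, the oligomycin-sensitivity subunit, had 139 and 99.7 CPM in cycling and non-cycling cells of WT, 202 and 145 in 8-week db/db, 343 and 257 in 16-week db/db, and 252 and 189 in HFD (log2 fold 0.43, SE 0.10, adjusted p = 0.021). Atp5b had 202 and 136, 409 and 311, 433 and 319.9, and 473 and 376 (0.41, SE 0.10, adjusted p = 0.025). The others were Ndufa8 (0.41), Atp5c1 (0.40), Atp5f1 (0.37) and Atp5g2 (0.36), each higher in 4 of 4 libraries. In the same cells 12 of 13 mt- genes were lower, all but mt-Nd6, with a median log2 fold of -0.45. The sum of mt- genes was 48611 CPM in cycling and 65768 in non-cycling cells of WT, 40846 and 51058 in 8-week db/db, 6951 and 9806 in 16-week db/db, and 81110.5 and 106859 in HFD. Cycling cells had a median of 9321 to 11578 UMIs per cell and non-cycling cells of 4149.5 to 5276.

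Few OXPHOS genes were called between endothelial and stromal cells. Of 82 OXPHOS genes tested in 3 libraries, 3 were higher (12.1% of all 12154 genes) and 3 lower (18.2%) by edgeR's quasi-likelihood test, with a median log2 fold of -0.10 against -0.14 for all genes. Ndufc2, an accessory subunit of complex I, had 329 CPM in endothelial and 130 in stromal cells of 8-week db/db, 778 and 215 in 16-week db/db, and 247 and 130.0 in HFD (1.19, SE 0.32, adjusted p = 0.018). Ndufa8 (0.89) and Cox5a (0.84) were the other 2. The 3 lower genes were Ndufa4l2 (-3.61), Atp5g1 (-1.13) and Ndufa13 (-0.97). Atp5g1 had 35.7 CPM in endothelial and 165 in stromal cells of 8-week db/db, 159 and 267 in 16-week db/db, and 116 and 176 in HFD. The 8-week db/db endothelial gate held 69 cells. Without HFD, 1 gene was higher and 5 were lower, and without 8-week db/db 2 were higher and 1 was lower. Of all genes, 1196 of 11259 were higher and 1901 lower without HFD. The counts without 8-week db/db were 1638 of 12365 higher and 1901 lower. The sign of the median was not stable, since it was 0.07 with no scaling beyond the UMI total, where the median of all genes was -0.0024, and 0.11 without 8-week db/db.

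Isoforms known from brown fat and muscle were at low levels in most of these gates, and the patterns of 2 of them differed between HFD and 16-week db/db. They were not rare in HFD endothelial cells. Cox8b was there in 61.6% of barcodes with a brown adipocyte UMI and 22.3% of those with none, and Cox7a1 in 41.1% and 13.3%. Cox8b and Cox7a1 are thermogenic and muscle isoforms of Cox8a and Cox7a2. Over all kept cells Cox8b had 1.57 CPM in WT, 4.36 in 8-week db/db, 2.32 in 16-week db/db and 92.5 in HFD, and the 8 brown adipocyte markers, which include Ucp1 and Cidea, summed to 7.37, 10.7, 11.2 and 144. In HFD Cox8b stood at 29.7 CPM in macrophages, 58.0 in stromal and 239 in endothelial cells. It was higher in HFD barcodes with a brown adipocyte UMI than in those with none: 56.9 and 20.3 in macrophages, 109 and 42.1 in stromal cells, and 329 and 81.3 in endothelial cells. Cox7a1 in HFD had the same pattern, with 28.8 and 9.78, 46.1 and 10.5, and 140 and 40.6. Both genes thus moved in HFD with markers of adipocytes, which the gates should not hold, and RNA from adipocytes and expression by the gated cells cannot be told apart.

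In 16-week db/db, Cox7a1 (chr7:30184144-30186078, plus strand, GRCm38) was also found in macrophage barcodes that held no brown adipocyte UMI. In macrophages it had 4.02, 7.27, 24.7 and 14.7 CPM in WT, 8-week db/db, 16-week db/db and HFD. Of the 441 Cox7a1 UMIs in 16-week db/db macrophages, 433 lay in the 2417 barcodes with no brown adipocyte UMI, at 24.6 CPM, and 8 in the 29 barcodes with one, at 35.1 CPM. Barcodes with none were 98.8% of the gate, so that split of UMIs follows from their number. Macrophage barcodes with none had 4.10 CPM in WT and 7.14 in 8-week db/db, and those with one 3.11 and 9.89. In stromal cells of 16-week db/db, 34 of the 50 Cox7a1 UMIs lay in 5 of the 19 barcodes with a brown adipocyte UMI. The level was 216 CPM in those 19 barcodes, against 3.58 in the other barcodes. In endothelial barcodes with no brown adipocyte UMI it had 4.25 CPM. In the same macrophages Cox8b had 5 UMIs (0.281 CPM) and the brown adipocyte markers summed to 1.68 CPM. Cox7a1 had 25.8 CPM in LAMs and 24.6 in PVMs of that library. Over 4 libraries macrophages were higher than stromal cells by 1.13 on the log2 scale (SE 0.36, adjusted p = 0.039 by edgeR's quasi-likelihood test), in 3 of 4 libraries. Cox7a2, its common paralog, had 695 CPM in these macrophages. The WT values rest on 30 UMIs in macrophages and 57 in stromal cells.

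Cox6a2 was higher in macrophages than in stromal cells, at a low level. It had 2.28, 2.54, 2.75 and 6.79 CPM in macrophages and 0.029, 0.497, 0.433 and 1.27 in stromal cells, where the WT value is 1 UMI (log2 fold 3.26, SE 0.59, adjusted p = 0.0054 by edgeR's quasi-likelihood test). Macrophages were above stromal cells in 4 of 4 libraries, and all 4 macrophage values were above all 4 stromal values. In HFD macrophages it was 7.20 CPM in barcodes with a brown adipocyte UMI and 6.65 in those with none. Its paralog Cox6a1 had 200.1, 263, 375 and 264 in macrophages. Cox7b2 and Cox8c had 0 UMIs in macrophages of all 4 libraries, and 3 UMIs in the smallest of them would have been 0.402 CPM.

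**Figure D4:**
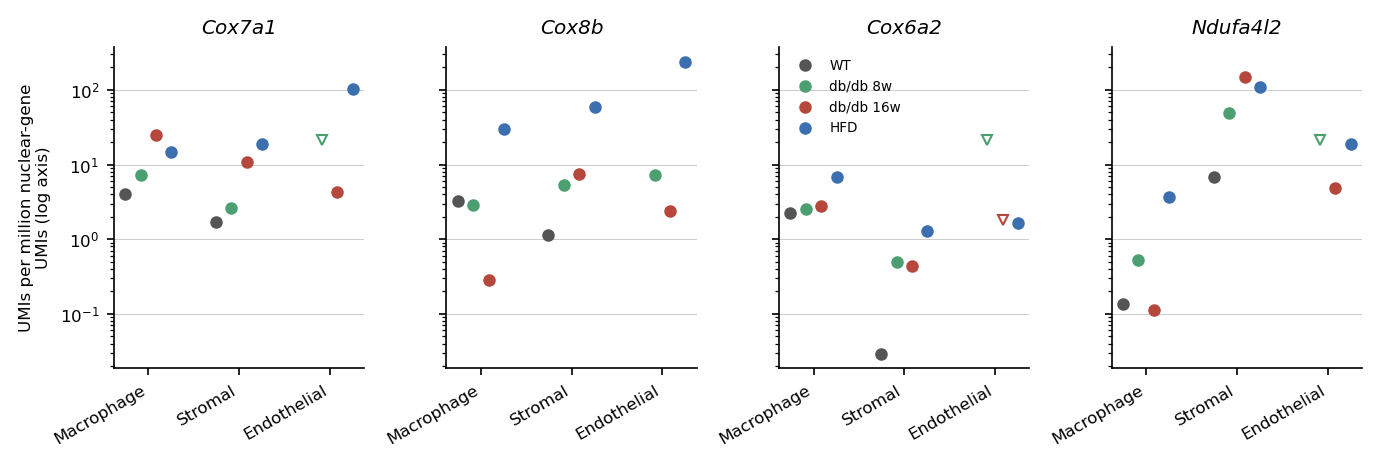
Level of Cox7a1, Cox8b, Cox6a2 and Ndufa4l2 in macrophages, stromal cells and endothelial cells, in CPM on log axes, with 1 point per library and open triangles at the level of 3 UMIs where the gene had none. WT is left out of the endothelial gate (10 cells), and Cox8b reached 239 CPM in endothelial cells of HFD.

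The relation between nuclear OXPHOS level and mt- share was also looked at across barcodes, including those over the 15% limit. In WT the OXPHOS sum fell from 11165 CPM in barcodes with under 2.5% mt- UMIs to 6820.02 in those with 10 to 15%, and in 16-week db/db from 31364 to 18344. In 8-week db/db it lay between 12638 and 15702 in all 7 bins. Above the limit it rose in WT to 17969 at 15 to 30% and 25046 at 30 to 60%, where brown adipocyte markers summed to 1634 and 2517 CPM. In the 718 WT barcodes of 60 to 100% mt- UMIs the OXPHOS sum was 10716 CPM and the markers summed to 958. In HFD it rose to 26761 at 30 to 60%, with 846 CPM of brown adipocyte markers.

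A group of 15 WT barcodes with 30000 or more UMIs and over 15% mt- UMIs set part of that rise. Their OXPHOS sum was 67918 CPM, with a range over barcodes of 10893 to 111106, and the brown adipocyte markers summed to 7721 CPM, with at least 100 such UMIs in 14 of the 15. The upper UMI limit removes them from the comparisons above, and 9 of them would have entered the macrophage or stromal gate by their markers. With barcodes of 30000 or more UMIs left out, a choice made after the data were seen, the WT values at 15 to 30% and 30 to 60% were 6392 and 15853, with 246 and 1364 CPM of brown adipocyte markers, and the value at 60 to 100% was 10709, with 833 CPM. No other library held a barcode of that depth over the limit.

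**Figure D5:**
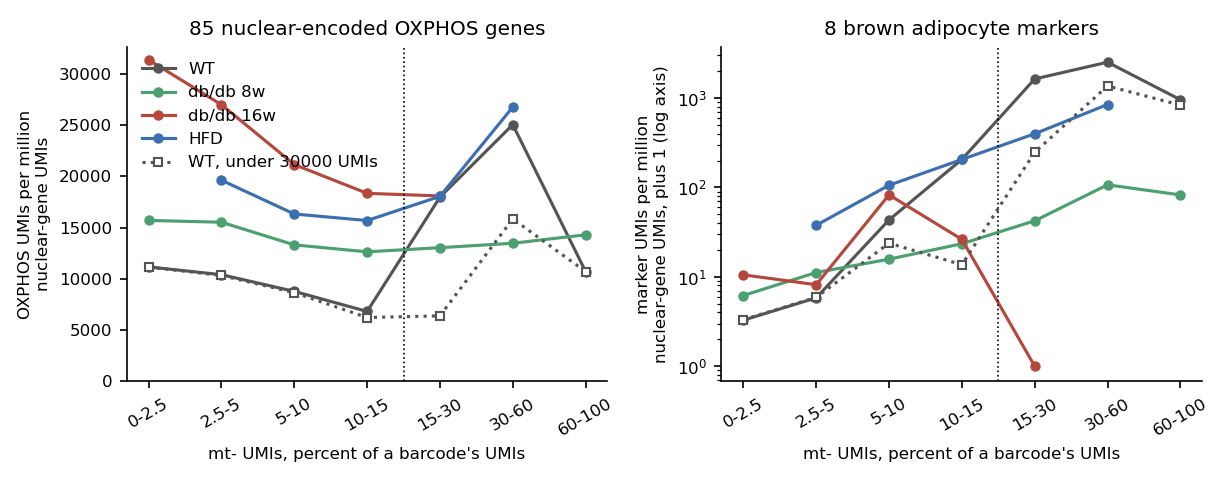
Summed nuclear OXPHOS level (left) and brown adipocyte marker level plus 1 on a log axis (right) in bins of the mt- share of a barcode, for all barcodes of over 500 UMIs, with 1 line per library, a dotted WT line for barcodes under 30000 UMIs, and the 15% limit as a vertical line. Without the deep barcodes the WT level at 15 to 30% is 6392 CPM in place of 17969.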

How the data were processed

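The authors processed 10x Genomics 3′ libraries with Cell Ranger on mm10, and the deposited matrices give raw UMI counts in whole numbers. The submitters' processing notes named Cell Ranger 7.1.0 and the file headers 6.0.0. Filtering limits were those of the study's methods. Doublets were treated only by the 75% share in the lineage gates. Counts were summed per library and gate in Python 3.11.15. With 1 library per group, libraries were compared with no test, as log2 ratios with 1 CPM (count per 1000000 UMIs of nuclear genes) added, exact Poisson 95% intervals for levels and exact binomial ones for ratios. Gates were compared with edgeR 4.0.16 in R 4.3.3 (TMM on nuclear genes, library as block, adjusted p under 0.05), for libraries with at least 50 cells in both gates. Genes of the gating lists were left out of the calls. The tests were tried on simulated data. DESeq2 1.42.0, other scalings, filters, gates and limits were tried as alternatives. By rule any subunit gene could be named, with the 3 highest and 3 lowest of each comparison, isoform pairs, X-linked and Sdh genes in full, and the other genes named were picked after their values were seen. The members and all lists were chosen with earlier results of these data known. Coordinates are those of GRCm38, and promoters are from RefSeq (GRCm38.p6). The samples are pools, so p-values measure the spread between these libraries. Ndufb2, Ndufa13, Cox4i1, Ndufb9, Atp5o and Ndufb8 overlap another coding gene on the same strand, so their counts are uncertain.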

Additional observations from a re-analysis of the deposited data

Results flagged for a closer look

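Barcodes over the 15% mt- limit were left out of the main comparisons, and 4 values in them lay above the WT library. With the limits on genes and UMIs kept, the nuclear OXPHOS sum in such barcodes was 13149 CPM in 8-week db/db and 20314 in HFD, against 8147 in WT. Cox7a1 had 141 CPM in HFD and 23.0 in WT, and Cox8b 353 and 74.3. Brown adipocyte markers were high in the HFD barcodes over the limit, as given with the bins of the mt- share, and their part in these values was not tested. No group had enough libraries to look for a library far from the others.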

How the results depend on the processing

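The median log2 fold of the OXPHOS genes between endothelial and stromal cells turned from -0.10 to 0.07 with no scaling beyond the UMI total and to 0.11 without 8-week db/db. For the macrophage sum of 8-week db/db, 16-week db/db and HFD against WT (0.50, 1.55 and 0.53 on the log2 scale), the values were 0.52, 1.62 and 0.48 relative to all UMIs, mt- included, 0.52, 1.58 and 0.49 with no mt- limit, 0.44, 1.498 and 0.49 with a strict gate (6 UMIs, 90% share), 0.56, 1.71 and 0.55 without ribosomal and nuclear-retained genes in the denominator, 0.44, 1.48 and 0.45 in non-cycling cells, 0.31, 1.35 and 0.12 in PVMs, and 0.49, 1.60 and 0.55 as the mean over barcodes. Barcodes of 2000 to 10000 UMIs gave 0.42 and 1.60 for 8-week db/db and 16-week db/db, and the median over genes gave 1.56 and 0.64 for 16-week db/db and HFD. For the stromal sum (0.41, 1.21 and 0.42) they were 0.39, 1.24 and 0.33 relative to all UMIs, mt- included, 0.43, 1.22 and 0.46 with no mt- limit, 0.39, 1.18 and 0.37 with a strict gate, 0.43, 1.24 and 0.45 with a lenient gate (2 UMIs, 50% share), 0.62, 1.43 and 0.68 at 2000 to 10000 UMIs, 0.45, 1.29 and 0.48 as the median over genes and 0.60, 1.25 and 0.64 as the mean over barcodes. Without ribosomal and nuclear-retained genes they were 1.27 and 0.37 for 16-week db/db and HFD. The mt- UMIs per nuclear OXPHOS UMI in WT, 8-week db/db, 16-week db/db and HFD were 6.24, 5.005, 0.313 and 11.4 with no mt- limit and 6.47, 3.72, 0.327 and 7.42 at 2000 to 10000 UMIs.

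Counts of genes called depended on the library block and on single libraries. With no library block, 7 genes were higher and 1 lower in macrophages than in stromal cells, 0 and 1 in endothelial cells, 0 higher in LAMs and 0 in cycling cells. Of all genes in these fits, 2448 of 13224 were higher and 2778 lower in macrophages, and 1099 of 12154 higher and 1679 lower in endothelial cells. In LAMs 76 of 11248 genes were higher, and in cycling cells 108 of 10962. Without the block, macrophages thus had no excess of OXPHOS genes among the higher calls, and few genes of any kind were called in LAMs. With no scaling beyond the UMI total, 35 were higher in macrophages (2602 of all 13317 genes). In LAMs 34 were higher and 1 lower, where 1147 of 11416 genes were higher and 2394 lower. Leaving out 1 library gave 17 to 66 higher and 1 to 3 lower in macrophages, 1 to 2 higher and 1 to 5 lower in endothelial cells, 10 to 60 higher in LAMs, and 0 to 16 higher in cycling cells. The calls of all genes changed as well, as given with the comparisons above. For endothelial cells without 16-week db/db they were 1128 of 13089 higher and 1912 lower. A strict gate gave 1 lower in endothelial cells, with 2 libraries (1748 of 11493 genes), and 3 higher in cycling cells (631 of 10530). No mt- limit gave 1 lower in cycling cells (700 of 11109 genes). The causes were not tested. No paired analysis was possible between the groups because each holds 1 library, and gates were paired within a library. The PVM-only comparison and the bins without deep barcodes were added after seeing the data.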
